A study of Canis lupus familiaris with 29 samples.

Results

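Canine pheochromocytomas and paragangliomas (PPGLs) with much PNMT transcript were compared with those with little. The tumors of each side were chosen by their own PNMT values: the 19 tumors were ranked by PNMT CPM (counts per 1e6 counts of the sample), and the 9 highest, called PNMT-high, were set against the 9 lowest, called PNMT-low. So 18 of 29 samples entered, and the tumor of rank 10 stood between the sides. PPGLs are tumors of catecholamine-producing chromaffin cells, here taken from client-owned dogs, and the series compared their RNA with that of normal adrenal medullas (NAMs) of 10 healthy research dogs. The authors had left out 2 tumors as outliers and had divided the rest into PPGL group 1, with 7 tumors, and PPGL group 2, with 12, from a principal component analysis of these same samples. RNA came from bulk tissue and was sequenced as stranded mRNA libraries. The paper counts 18 adrenal pheochromocytomas and 1 extra-adrenal paraganglioma among the tumors. They came from several institutions, after surgery or euthanasia, and were snap-frozen directly or kept in RNAlater first. The labels give no treatment, age or genotype for the tumors. Nor do they say which tumor was the paraganglioma, so its side is not given here. The PNMT-high side held 4 tumors of group 1 and 5 of group 2, the PNMT-low side 3 of group 1 and 6 of group 2, and the tumor between them belonged to group 2, so that both groups stood on both sides.

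PNMT encodes phenylethanolamine N-methyltransferase, the last enzyme of catecholamine synthesis, which moves a methyl group from S-adenosylmethionine to noradrenaline to make adrenaline. Before it, tyrosine hydroxylase (TH) makes L-DOPA, DOPA decarboxylase (DDC) makes dopamine, and dopamine beta-hydroxylase (DBH) makes noradrenaline inside the secretory granule. In the adrenal medulla PNMT marks adrenergic chromaffin cells, and its gene is known to respond to glucocorticoids that reach the medulla from the surrounding cortex, and to the transcription factors EGR1, SP1 and AP-2.

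PNMT (ENSCAFG00000016368) lies on chromosome 9 from 22808601 to 22810551 of CanFam3.1, on the minus strand, in 3 exons. It chose the tumors, so its values are a description and were not tested. In the PNMT-high tumors PNMT ran from 343 to 6254 CPM with a median of 762, in the PNMT-low tumors from 13.98 to 142 CPM with a median of 68.7, and in the NAMs from 1524 to 4089 CPM with a median of 2343. The median of the higher side was 11.1 times that of the lower side, and the highest tumor had 447 times the PNMT of the lowest. Tumors 2 and 4 of group 1 led the ranking, at 6254 and 1403 CPM, and tumors 5 and 7 of the same group closed it, at 23.6 and 13.98 CPM. Of the 19 tumors, 18 lay below the lowest NAM, the exception being tumor 2 of group 1, which lay above every NAM. Just inside the higher side stood tumor 2 of group 2 at 343 CPM, between the sides tumor 4 of group 2 at 168 CPM, and just inside the lower side tumors 7 and 12 of group 2 at 142 and 142 CPM. The step from rank 9 to rank 10 was 2.05-fold and that from rank 10 to rank 11 1.18-fold, and the tumors of ranks 10 to 12 lay close together. The lowest tumor still had 346 PNMT reads, against the 3 counts taken as the smallest amount that the depth can show.

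**Figure D1:**
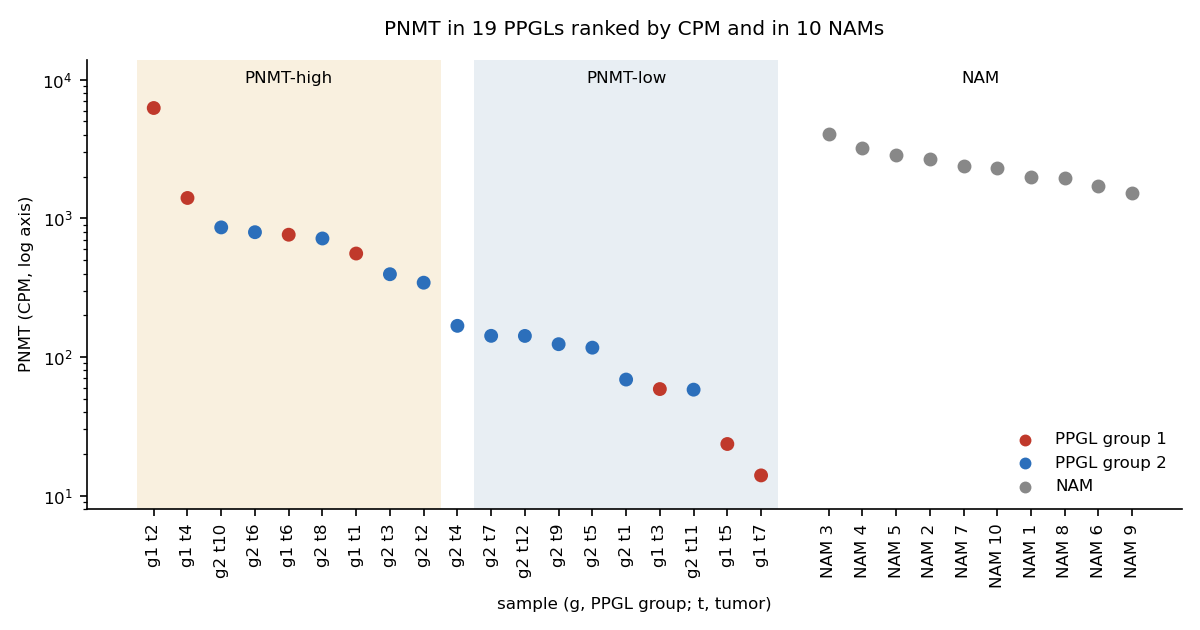
PNMT in CPM (log axis) for each tumor, ranked from highest to lowest, and for each NAM; red points are PPGL group 1, blue points PPGL group 2 and grey points NAMs, with the PNMT-high tumors on the left shading and the PNMT-low tumors on the right shading. The ranking runs from 6254 to 13.98 CPM, group 1 tumors stand at both ends of it, and 18 tumors lie below the lowest NAM.

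Some tumors stood apart in genes that define chromaffin cells. Values from here on are CPM normalized by TMM (trimmed mean of M-values, a scaling between samples). In tumors 3 and 5 of group 1, TH was 10.7 and 2.15 CPM and DDC 0.284 and 0.358 CPM, while no PNMT-high tumor had less than 859.9 CPM of TH or 218 of DDC. Both tumors did hold other transcripts of the lineage: DBH was 2551 and 2166 CPM, chromogranin B (CHGB) 13045 and 6829 CPM, and PHOX2A 906 and 586 CPM. Tumor 7 of group 1, the lowest in PNMT, kept TH (1372 CPM) and DBH (5167 CPM) but had 26.9 CPM of CHGB, 0.466 of the dopamine receptor DRD2 and 0.133 of proenkephalin (PENK), where the other tumors of its side had at least 6829, 96.8 and 4164 CPM. In tumor 7 of group 2, TH was 32.2 CPM with DDC at 189 and DBH at 12551 CPM. On the PNMT-high side, tumor 2 of group 1 had 0.328 CPM of PENK beside its high PNMT. CHGA was not found by name in the table.

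Across the genome no gene passed the threshold between the sides in edgeR's test, and the count differed between tools. Of 14154 genes tested by edgeR's quasi-likelihood test, 0 (0%) were higher and 0 (0%) lower in PNMT-high tumors at a p below 0.05 after Benjamini-Hochberg correction, called the adjusted p, and the smallest was 0.120. At an unadjusted p below 0.05, 613 genes (4.33%) were higher and 1150 (8.12%) lower, and the median log2 FC of all genes (the log2 of the fitted ratio of PNMT-high to PNMT-low tumors, given with its standard error, SE) was -0.02. DESeq2's Wald test on the same genes gave 77 higher (0.544%) and 215 lower (1.52%) genes, and in 457 genes (3.23%) it had replaced an extreme count by a trimmed mean. The exact Mann-Whitney U-test gave 0 and 0 (1109 at an unadjusted p below 0.05). With the NAMs in edgeR's fit as a group that shares the estimate of spread, 112 of 14822 genes (0.756%) were higher and 331 (2.23%) lower, and 264 genes were called both there and by DESeq2, 90.4% of the DESeq2 calls and 59.6% of the other. The log2 FCs of single genes given next are from edgeR and describe these 18 tumors. Without tumors 3, 5 and 7 of group 1, edgeR gave 0 higher and 0 lower genes as well (1650 at an unadjusted p below 0.05). An interaction of PPGL group and side was past an adjusted p of 0.05 in 0 genes by edgeR's test (1009 at an unadjusted p below 0.05).

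The enzymes ahead of PNMT had higher medians on its side. TH, the rate-limiting enzyme, ran from 859.9 to 6694 CPM in PNMT-high tumors (median 3026) and 2.15 to 3048 CPM in PNMT-low tumors (median 1230.1), with a log2 FC of 1.42 (SE 0.86, adjusted p = 0.519). The sides overlapped, since 8 of 9 PNMT-high tumors lay above the PNMT-low median but 4 above every PNMT-low tumor, and 3 PNMT-low tumors held 32.2 CPM or less. DDC ran from 218 to 736 CPM in PNMT-high tumors (median 406) and 0.284 to 339.8 CPM in PNMT-low tumors (median 199); all 9 PNMT-high tumors were above the PNMT-low median and 5 above every PNMT-low tumor (log2 FC 1.19, SE 0.77, adjusted p = 0.549). DBH ran from 4111 to 29282 CPM in PNMT-high tumors (median 17117) and 2166 to 22479.8 CPM in PNMT-low tumors (median 5167) (log2 FC 1.18, SE 0.46, adjusted p = 0.302). For DBH, 8 of 9 PNMT-high tumors were above the PNMT-low median, tumor 8 of group 2 was the exception at 4111 CPM, and in PNMT-low tumors the highest value, in tumor 5 of group 2, lay above all but 1 PNMT-high tumor. In the NAMs the medians were 1422 CPM for TH, 187 for DDC and 6652 for DBH, each below the PNMT-high median, while PNMT itself was higher in the NAMs. Cortex markers summed to 15185 to 73774 CPM in the NAMs, where the paper proposes contamination by cortical cells. The part of these cells in the NAM medians was not tested. Over the 19 tumors, Spearman's rank correlation coefficient with PNMT was 0.58 for TH, 0.61 for DDC and 0.69 for DBH, and within the 12 tumors of group 2 it was 0.50, 0.48 and 0.47. With tumors 3, 5 and 7 of group 1 left out, the log2 FCs were 1.02, 0.88 and 0.81, and within group 2 1.07, 0.77 and 0.44. In bulk tissue, fewer chromaffin cells and less RNA per chromaffin cell cannot be told apart.

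Among 9 genes that supply cofactors to these enzymes, 2 were higher and 0 lower at an unadjusted p below 0.05. Over all genes tested, 4.33% were higher and 8.12% lower at that p, and the list counts below stand beside these shares. Of the 9, 0 were past edgeR's FDR threshold, and the list median was 0.28 on the log2 scale, or 0.11 within group 2. GCH1, GTP cyclohydrolase, which makes the tetrahydrobiopterin that TH needs, ran from 158 to 348 CPM in PNMT-high tumors (median 211) and 34.3 to 231 CPM in PNMT-low tumors (median 100.3) (log2 FC 1.01, SE 0.28, adjusted p = 0.172). Every PNMT-high tumor lay above the PNMT-low median of GCH1, and its log2 FC was 0.96 within group 2; DESeq2 gave it an adjusted p of 0.0364. AHCY, which clears the S-adenosylhomocysteine that PNMT and other methyltransferases leave behind, had medians of 363 against 171 CPM and 8 of 9 PNMT-high tumors above the PNMT-low median (log2 FC 1.42, SE 0.51, adjusted p = 0.258). Tumor 1 of group 1 held 1917 CPM of AHCY, and the log2 FC was 0.84 without it and 0.68 within group 2. MAT2A, which makes S-adenosylmethionine, had medians of 413 against 254 CPM with a log2 FC of 0.22, which was -0.03 with the fibroblast and leukocyte score as a term. The enzymes that make or recycle tetrahydrobiopterin after GCH1 had log2 FCs of 0.29 (PTS, but -0.01 without tumor 2 of group 1), -0.38 (SPR, but 0.04 without tumors 3, 5 and 7 of group 1), 0.35 (QDPR) and 0.28 (PCBD1). The ascorbate that DBH uses is taken up by SLC23A2 and kept reduced in the granule by CYB561, with log2 FCs of 0.25 and -0.28, the latter 0.04 without tumor 12 of group 2.

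Of 10 genes for storage, uptake and breakdown, 2 were higher and 0 lower at an unadjusted p below 0.05, against 4.33% and 8.12% of all genes. Past edgeR's FDR threshold were 0, and the list median was 0.22. It was 0.60 without tumor 7 of group 1, 0.10 without tumor 7 of group 2 and 0.41 by DESeq2. SLC6A2, the noradrenaline transporter of the cell surface, ran from 36.3 to 832 CPM in PNMT-high tumors (median 215) and 1.18 to 379 CPM in PNMT-low tumors (median 64.0) (log2 FC 1.83, SE 0.85, adjusted p = 0.390; log2 FC 0.77 within group 2). The 3 lowest tumors, at 1.18, 2.48 and 4.23 CPM, were all PNMT-low. MAOB, a monoamine oxidase of the mitochondrial surface, had medians of 257 against 50.1 CPM (log2 FC 1.79, SE 0.83, adjusted p = 0.390), and 6 of 9 PNMT-high tumors lay above every PNMT-low tumor while tumor 4 of group 1 had 10.2 CPM. SLC18A2, the vesicular monoamine transporter of type 2, was nearly absent in some tumors of both sides. It was 0.234 and 0.131 CPM in tumors 2 and 1 of group 1 on the PNMT-high side, and 0.239, 1.22, 1.63, 4.00 and 7.01 CPM in 5 PNMT-low tumors, against 129 to 1456 CPM in the other tumors. Its log2 FC was 0.92 (SE 1.40). The sister transporter SLC18A1 had medians of 282 against 209 CPM and a log2 FC of 0.07, which was -0.24 without tumor 2 of group 1. Both tumors with high PNMT and hardly any SLC18A2 had SLC18A1, at 885 and 269.8 CPM. Of the 5 PNMT-low ones, tumors 7, 9 and 1 of group 2 had 177, 544 and 209 CPM of SLC18A1. Tumor 5 of group 1 had 549 CPM, but tumor 7 of group 1 had 12.5 CPM. Tumor 11 of group 2, with SLC18A2 at 278 CPM, had 4.22 CPM of SLC18A1. The other oxidase, MAOA (log2 FC 0.10, but -0.03 without TMM and -0.85 within group 2), the uptake carriers SLC22A3 (0.34, with medians of 1.84 against 2.27 CPM) and SLC29A4 (-0.15), and the aldehyde enzymes ALDH3A2 (-0.23, but 0.50 by DESeq2 and 0.51 without tumor 7 of group 1) and AKR1B1 (1.76, but with medians of 6.63 against 11.2 CPM) had adjusted p-values of 0.520 to 0.968. The log2 FC of AKR1B1, which the adrenal cortex also expresses, was 0.88 without tumor 10 of group 2 and -0.28 with the cortex score as a term. ALDH2 and AKR1A1 were not found by name.

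**Figure D2:**
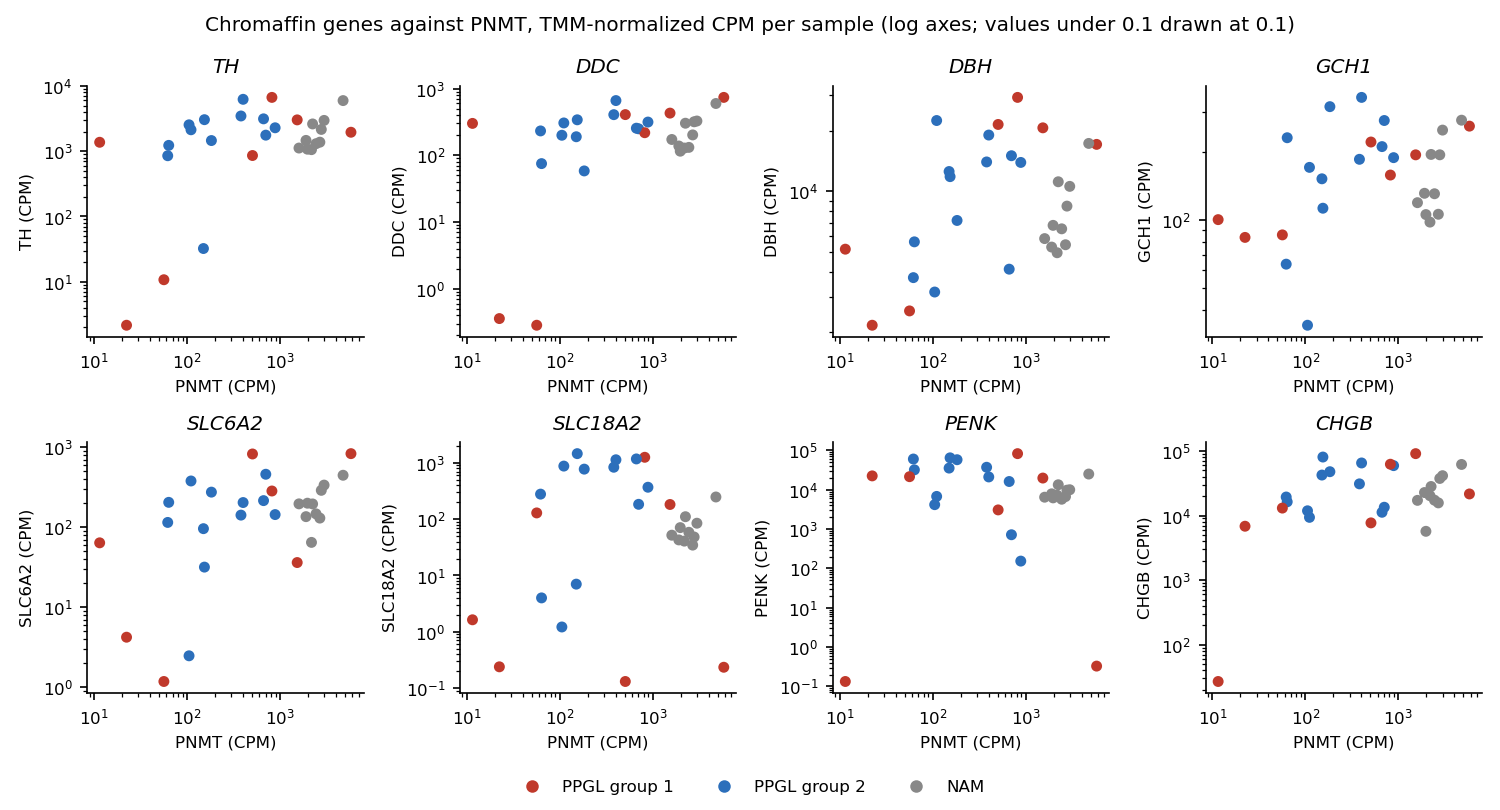
Each panel plots 1 gene (y axis) against PNMT (x axis), both as TMM-normalized CPM on log axes, with 1 point per sample: red for PPGL group 1, blue for PPGL group 2 and grey for NAMs; values under 0.1 CPM are drawn at 0.1. TH and DDC hold a few tumors near 0, all with PNMT at or under 154 CPM, SLC18A2 and PENK are near 0 in tumors of low and of high PNMT, and CHGB is low in 1 tumor only.

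Among 13 regulators of PNMT tested, 1 was higher and 1 lower at an unadjusted p below 0.05, against 4.33% and 8.12% of all genes. Past edgeR's FDR threshold were 0, and the list median was -0.21. That median was 0.36 without tumor 11 of group 2, 0.30 with PPGL group as a term and 0.28 with the fibroblast and leukocyte score as a term. NR3C1, the glucocorticoid receptor, ran from 75.9 to 444 CPM in PNMT-high tumors (median 146) and 25.1 to 164 CPM in PNMT-low tumors (median 111) (log2 FC 1.05, SE 0.40, adjusted p = 0.293), with 4 of 9 PNMT-high tumors above every PNMT-low tumor. The 2 lowest values of NR3C1 were in tumors 7 and 3 of group 1, at 25.1 and 27.2 CPM, and within group 2 its log2 FC was 0.10. MAZ, a zinc finger factor with sites in the PNMT promoter, had medians of 40.9 against 70.3 CPM and lay below the PNMT-low median in all 9 PNMT-high tumors (log2 FC -0.65, SE 0.24, adjusted p = 0.269; log2 FC -0.32 within group 2). EGR1, SP1 and TFAP2A had log2 FCs of 0.34, -0.31 and 0.51, with adjusted p-values of 0.902, 0.696 and 0.851, but -0.09 for EGR1, whose medians were 219 against 409 CPM, without tumor 3 of group 2 and -0.17 for TFAP2A within group 2. The nicotinic receptor subunits CHRNA3 and CHRNB4, through which the splanchnic nerve acts, had log2 FCs of -0.21 and 0.35, and the PACAP receptor ADCYAP1R1 0.62. EPAS1, the hypoxia-inducible factor of chromaffin cells, had medians of 658 against 734 CPM (log2 FC -0.40), and HIF1A 153 against 159 CPM (-0.47, and 0.00 without tumor 11 of group 2). NR3C2, the mineralocorticoid receptor, had a log2 FC of -0.28, and HSD11B1, which regenerates active glucocorticoid, -0.28, which was 1.52 without tumor 11 of group 2; that of HSD11B2, which inactivates it, was 1.73 and became -0.32 with the cortex score as a term. ADCYAP1 was not found by name.

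Of 17 genes known to respond to glucocorticoids, 0 were higher and 4 lower at an unadjusted p below 0.05, against 4.33% and 8.12% of all genes. Past edgeR's FDR threshold were 0, and the list median was -0.36, or 0.00 without tumor 11 of group 2. FKBP5, PER1 and TSC22D3, among the usual reporters of the receptor, had medians of 209.8 against 127 CPM, 107 against 81.5 CPM and 83.2 against 45.5 CPM, with log2 FCs of 0.37, 0.18 and 0.20 that were -0.08, 0.16 and -0.41 within group 2. The smallest p of the list belonged to RGS2, a regulator of G protein signaling (18.6 against 52.3 CPM; log2 FC -1.77, SE 0.50, adjusted p = 0.172). DESeq2 gave RGS2 an adjusted p of 0.0192. Its log2 FC was -0.96 without tumor 11 of group 2 and -0.43 with a fibroblast and leukocyte score as a term.

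Transcripts of the adrenal cortex, the source of glucocorticoids, were present on both sides. The 16 cortex markers found in the table summed to 428 to 35798 CPM in PNMT-high tumors (median 1238) and 217 to 10874 CPM in PNMT-low tumors (median 840.1), and to 15185 to 73774 CPM in the NAMs, with CYP17A1 taking the most counts. Of 15 tested, 15 had a positive log2 FC by edgeR and 12 by DESeq2, and 0 had an unadjusted p below 0.05 by edgeR. The median of 1.06 went to 0.15 without tumor 10 of group 2, whose sum of 35798 CPM was the highest of the tumors. That median was 1.43 within group 2 and 0.98 with PPGL group as a term. By edgeR, 6735 of all 14154 genes tested had a positive log2 FC. STAR, which brings cholesterol into the mitochondrion, had medians of 842 against 122 CPM (log2 FC 1.31, SE 0.78, adjusted p = 0.506), with a log2 FC of 0.71 without tumor 10 of group 2. CYP11A1 ran from 0.611 to 4529 CPM in PNMT-high tumors (median 158) and 0 to 1088 CPM in PNMT-low tumors (median 95.0). Tumors at or near 0 stood on both sides, and all were of group 1. Tumors 1 and 2, PNMT-high, had 0.611 and 2.48 CPM, and tumors 3, 5 and 7, PNMT-low, 0.0596 CPM or less. Over the 19 tumors, the rank correlation between the cortex sum and PNMT was 0.31, within group 2 0.34, and over the 10 NAMs -0.73. The samples of each rank correlation share a normalization, and the part of cortex cells in the other values was not tested beyond the fit with the cortex score. Tumor 2 of group 1, with the highest PNMT, had a cortex sum of 1042 CPM, and tumor 1 of group 2, on the PNMT-low side, had 10874 CPM. CYP11B1, CYP11B2, SULT2A1 and AKR1D1 were not found by name.

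The 5 genes with the smallest p in each direction, none past the FDR threshold in edgeR's test, were led among the higher ones by STK32B, a serine/threonine kinase, with 0.349 to 65.0 CPM in PNMT-high tumors (median 16.7) and 0.240 to 2.57 CPM in PNMT-low tumors (median 0.521) (log2 FC 4.59, SE 0.84, adjusted p = 0.120). For STK32B, 7 of 9 PNMT-high tumors lay above every PNMT-low tumor, the NAM median was 35.9 CPM, and the log2 FC within group 2 was 2.92. PXDNL, a peroxidasin-like protein, had medians of 12.8 against 2.27 CPM (log2 FC 3.05, SE 0.66, adjusted p = 0.169). RAB3B, a small GTPase of secretory vesicles, ran from 3.72 to 8.73 CPM in PNMT-high tumors (median 5.01) and 0.995 to 3.28 CPM in PNMT-low tumors (median 2.402), with no overlap (log2 FC 1.44, SE 0.31, adjusted p = 0.169). ZFAT, a zinc finger protein, and STN1, of the complex that caps telomeres, had log2 FCs of 1.10 and 1.03, and 8 and 7 PNMT-high tumors above every PNMT-low tumor.

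OLFM2, a secreted olfactomedin, had the smallest p of all genes and ran from 1.35 to 6.79 CPM in PNMT-high tumors (median 3.60) and 1.53 to 104 CPM in PNMT-low tumors (median 26.6) (log2 FC -3.35, SE 0.56, adjusted p = 0.120). Of the PNMT-low tumors, only tumor 11 of group 2, at 1.53 CPM, lay within the PNMT-high range, the next lowest PNMT-low tumor having 17.1 CPM, and without it the adjusted p of OLFM2 was 0.00385 (log2 FC -3.51). Across the leave-one-out fits of OLFM2 the log2 FC ran from -3.51 to -3.03. It was -2.46 within group 2 and -2.39 without tumors 3, 5 and 7 of group 1. The highest values of OLFM2, 104 and 94.6 CPM, were in tumors 3 and 7 of group 1. Its rank correlation with PNMT was -0.64 over the 19 tumors and -0.33 within group 2. CORO1A, an actin-binding coronin of leukocytes, ran from 6.88 to 15.6 CPM in PNMT-high tumors (median 10.1) and 17.5 to 92.9 CPM in PNMT-low tumors (median 24.3), with every PNMT-high tumor below every PNMT-low tumor (log2 FC -1.63, SE 0.30, adjusted p = 0.120); without tumor 11 of group 2, which had 92.9 CPM, its log2 FC was -1.25 (adjusted p = 0.0438). CD5L, secreted by macrophages, had medians of 0.126 against 3.90 CPM (log2 FC -5.90, SE 1.11, adjusted p = 0.120). Its PNMT-high median lay at the floor of 3 counts (0.122 to 0.162 CPM on that side). Tumors 6 and 3 of group 2 had 0 CPM, so the size of this log2 FC is uncertain. WWC1, a scaffold of the Hippo pathway, had medians of 0.437 against 2.30 CPM (log2 FC -3.06), and RGS19, a regulator of G protein signaling, 7.21 against 22.9 CPM (-1.47). Without tumor 5 of group 2, edgeR called 3 lower genes, OLFM2, CD5L and RGS19, and 2 higher ones, named here after their values were seen: CCDC181, a coiled-coil protein (medians 38.7 against 14.1 CPM, log2 FC 1.51), and ENSCAFG00000042235, which has no symbol (2.75 against 0.379 CPM, 2.90). The adjusted p was 0.0416 for each of the 5 genes.

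All 10 genes with the smallest p by edgeR were past the threshold in DESeq2's test. In all, 4 genes of 14154 (0.0283%) had every PNMT-high tumor above every PNMT-low tumor and 1 (0.00707%), CORO1A, the reverse. The 4 were RAB3B, TOMM70, CPA1 and DIMT1, the last 2 named here after their values were seen. TOMM70, a receptor for proteins imported into mitochondria, ran from 88.4 to 126 CPM in PNMT-high tumors (median 109.7) and 47.4 to 87.3 CPM in PNMT-low tumors (median 75.2) (log2 FC 0.58, SE 0.13, and 0.36 within group 2). CPA1, a carboxypeptidase best known from the pancreas, had medians of 13.3 against 5.26 CPM, and DIMT1, which methylates ribosomal RNA, 15.7 against 11.2 CPM. For 8 of the 10 genes with the smallest p, CORO1A and ZFAT being the exceptions, the PNMT-high median lay nearer the NAM median than the PNMT-low median did. The same held for 7493 of all 14154 genes tested (52.9%), and for 59.7% of the genes higher and 57.7% of those lower at an unadjusted p below 0.05. For example, the NAM medians of OLFM2, WWC1 and RGS19 were 3.15, 0.162 and 6.04 CPM. This nearness was not tested, nor was the part of cortex cells in the NAM medians.

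**Figure D3:**
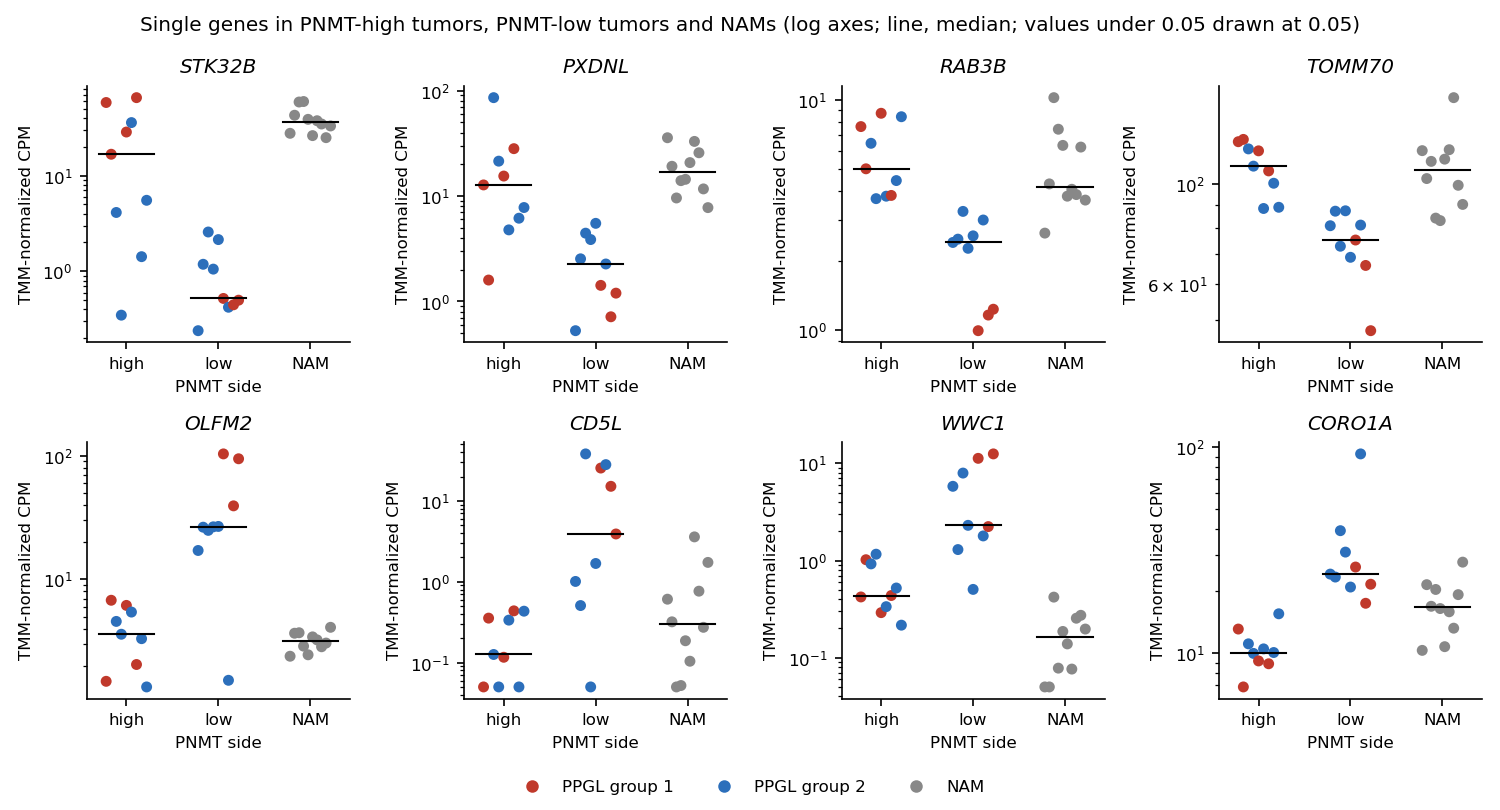
TMM-normalized CPM (log axes) of 8 genes in each PNMT-high tumor, PNMT-low tumor and NAM, with red for PPGL group 1, blue for PPGL group 2, grey for NAMs and a line at the median; values under 0.05 CPM are drawn at 0.05. RAB3B, TOMM70 and CORO1A have no overlap between the sides, OLFM2 has 1 PNMT-low tumor at 1.53 CPM among the PNMT-high values, and all 8 genes passed the FDR threshold between the sides in DESeq2's test but none in edgeR's.

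When PNMT was taken as a gradient over all 19 tumors in place of 2 sides, 3 genes (0.0212%) rose and 1 (0.00707%) fell with log2 PNMT at an adjusted p below 0.05 in edgeR's fit. UBE2U, a ubiquitin-conjugating enzyme, rose by 0.72 on the log2 scale per doubling of PNMT (SE 0.10, adjusted p = 0.00691) and PDYN, prodynorphin, by 0.93 (SE 0.13, adjusted p = 0.00691). TOMM70 rose by 0.16 (SE 0.03, adjusted p = 0.0195), and OLFM2 fell by 0.72 (SE 0.13, adjusted p = 0.0452). PDYN rested on tumor 2 of group 1, which had 176 CPM where no other tumor exceeded 3.03 CPM, and without it the adjusted p of PDYN was 0.422. UBE2U, at 11.1 CPM in that tumor, then had 0.0547, TOMM70 0.0104 and OLFM2 0.0214. With PPGL group as a term none of the 4 passed the threshold by edgeR's test, with adjusted p-values of 0.0802 to 0.109, in a fit with 2039 genes at an unadjusted p below 0.05. Without tumor 1 of group 2, TOMM70 and OLFM2 each had 0.0593, and OLFM2 was past the threshold in 7 of the 19 fits that left out 1 tumor. The count differed with the tumor left out: without tumor 2 of group 1, the top of the gradient, 38 genes rose and 165 fell, without tumor 7, its foot, 34 and 17, and without tumor 5 of group 1, 10 and 15.

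The 5 genes whose ranks ran closest to those of PNMT over the 19 tumors were TOMM70 (rank correlation 0.94), RAB3B (0.83), STN1 (0.83), CUTC (0.82), named for copper handling, and TMED1 (0.82), of early secretory transport. Those that ran most against it were RGS19 (rank correlation -0.87), the neuronal septin SEPTIN3 (-0.84), PLEKHO1 (-0.79), SLX4 (-0.78), a scaffold of DNA repair nucleases, and SLC1A7 (-0.78), a glutamate transporter. Within the 12 tumors of group 2, the rank correlation was 0.83 for TOMM70 and -0.76 for RGS19. Over the 10 NAMs it was -0.37 for TOMM70 and 0.14 for RGS19. STK32B had a rank correlation of 0.66 over the tumors, 0.36 within group 2 and 0.96 over the NAMs. These genes were picked for their rank correlation among the genes tested, and the values carry no test.

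Of 11 granin and prohormone-processing genes tested, 10 had a positive log2 FC (against 6735 of all 14154 genes), 1 at an unadjusted p below 0.05, with a median of 0.37, or 0.12 within group 2. CHGB ran from 7694 to 90859 CPM in PNMT-high tumors (median 30934) and 26.9 to 80496 CPM in PNMT-low tumors (median 13045) (log2 FC 0.88, SE 0.77, and 0.29 within group 2), and PCSK2, a convertase that cuts prohormones, had medians of 149 against 22.1 CPM (log2 FC 2.41, SE 1.14, adjusted p = 0.399). The log2 FC of PCSK2 was 0.96 without tumor 1 of group 1 and -0.17 within group 2. Of 18 peptide genes, 11 were tested, 3 of them higher and 0 lower at an unadjusted p below 0.05. The shares over all genes were 4.33% and 8.12%. PDYN had a log2 FC of 4.80 that was 0.65 without tumor 2 of group 1 and -0.52 within group 2, neuropeptide Y (NPY) had medians of 3.43 against 0.508 CPM (log2 FC 2.66) and neuromedin B (NMB) 1.18 against 0.561 CPM (1.47, and 0.52 within group 2). PENK ran from 0.328 to 82532 CPM in PNMT-high tumors (median 16156) and 0.133 to 64529.8 CPM in PNMT-low tumors (median 22446), so that the tumors at either end of the PNMT ranking, tumors 2 and 7 of group 1, both had almost none. The rank correlation between the peptide sum, of which PENK took 97.4%, and PNMT was -0.20 over the tumors and -0.45 within group 2.

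Of 19 genes for vesicle docking and exocytosis, 1 was higher and 1 lower at an unadjusted p below 0.05, against 4.33% and 8.12% of all genes. The median was 0.41, or 0.09 within group 2. The 2 genes were SV2C, a synaptic vesicle glycoprotein (5.77 against 1.01 CPM, log2 FC 3.40, 2.07 without tumor 2 of group 1, -0.22 within group 2, adjusted p = 0.0287 by DESeq2), and the membrane fusion protein STX1A (11.5 against 21.1 CPM, log2 FC -0.92, -0.51 within group 2). Among 20 receptors, 2 were higher and 1 lower, with a median of 0.14 that was -0.08 without tumor 2 of group 1. Of the 2 higher ones, GFRA3, the artemin co-receptor, had medians of 14.1 against 5.02 CPM (log2 FC 3.09, 0.75 without tumor 1 of group 1, -0.03 within group 2), and the neurotrophin receptor NTRK2 19.8 against 7.01 CPM (1.57). RET, at an unadjusted p of 0.0939, had 193 against 73.4 CPM (log2 FC 1.19). It was nearly absent in tumor 1 of group 1 (3.89 CPM), which was PNMT-high, and in tumor 5 (1.43 CPM), which was PNMT-low. DRD2 had medians of 159 against 218 CPM with a log2 FC of 0.20, which was -0.10 without tumor 2 of group 1. Of 18 ion channel genes, 0 were higher and 2 lower, with a median of -0.02 that took either sign with the tumor left out, and the smallest p belonged to the sodium channel SCN2A (0.234 against 2.80 CPM, log2 FC -2.75, -1.62 within group 2).

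Transcription factors of the sympathoadrenal lineage gave a median of -0.21 over 13 tested, with 0 at an unadjusted p below 0.05. That median was 0.39 with the 6 highest against the 6 lowest tumors, 0.17 with PPGL group as a term and 0.12 without tumor 7 of group 2. PHOX2A had medians of 389.9 against 536 CPM (log2 FC -0.30) and HAND2 143 against 264 CPM (-0.52). GATA3, a zinc finger factor of sympathoadrenal development, ran from 0.377 to 617 CPM in PNMT-high tumors (median 119) and 1.00 to 417 CPM in PNMT-low tumors (median 27.3) (log2 FC 1.37, SE 0.98, adjusted p = 0.596; log2 FC 0.86 without tumor 2 of group 1, 2.60 without tumor 7 of group 1 and 0.39 with the fibroblast and leukocyte score as a term), with 8 of 9 PNMT-high tumors above the PNMT-low median and tumor 8 of group 2 at 0.377 CPM. ISL1 ran from 0 to 351 CPM in PNMT-high tumors (median 6.11) and 0 to 294 CPM in PNMT-low tumors (median 10.8) and was 138 CPM or more in 2 PNMT-high and 3 PNMT-low tumors, all of group 1. SOX4 had the smallest p of the list (4.65 against 6.18 CPM, log2 FC -1.26, but -0.42 without tumor 7 of group 1, which held 54.9 CPM), and INSM1 and SOX11 were not found by name. The neuronal list had 1 of 15 genes higher and 0 lower at an unadjusted p below 0.05 and a median of 0.21, or -0.09 with PPGL group as a term; the 1 was the neurofilament NEFH (75.4 against 15.7 CPM; log2 FC 1.74, SE 0.61, adjusted p = 0.248; log2 FC 0.47 within group 2), with all 9 PNMT-high tumors above the PNMT-low median.

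Proliferation genes had a median log2 FC of -1.03. At an unadjusted p below 0.05, 0 of 18 were higher and 5 lower, against 4.33% and 8.12% of all genes. The summed level ran from 258 to 722 CPM in PNMT-high tumors (median 386) and 247 to 2722 CPM in PNMT-low tumors (median 438), and tumor 7 of group 1 had the 2722 CPM at the top. The list median was -0.64 by DESeq2 and -0.17 without that tumor, and without tumors 3, 5 and 7 of group 1 it was 0.02. RRM2, of nucleotide synthesis, had medians of 5.33 against 21.8 CPM (log2 FC -2.52, SE 0.84, adjusted p = 0.230), TOP2A 23.6 against 51.2 CPM and MKI67 12.4 against 18.9 CPM. Without tumor 7 of group 1 the log2 FC of RRM2 was -0.86, and those of TOP2A and MKI67 went from -1.76 and -1.39 to -0.39 and -0.14. Hypoxia-responsive genes had 0 of 19 higher and 2 lower and a median of -0.30; EGLN3, a prolyl hydroxylase, had medians of 0.736 against 2.11 CPM (log2 FC -1.48). The 19 oxidative phosphorylation subunits tested had 2 higher, 0 lower and a median of 0.15, with ATP5F1A of ATP synthase at 663 against 538 CPM (log2 FC 0.42). Immediate early genes (median -0.08, or 0.27 without tumor 11 of group 2; smallest p for DUSP1, 110.3 against 165 CPM, log2 FC -0.47, 0.00 without tumor 11 of group 2) had 0 of 15 at an unadjusted p below 0.05. Of 20 PPGL susceptibility genes, 0 were higher and 1 lower (DNMT3A, 8.55 against 12.8 CPM, log2 FC -0.87), with a median of 0.06 that was -0.03 without TMM.

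Of 14 fibroblast and pericyte genes, all of them tested, 12 were lower and 0 higher at an unadjusted p below 0.05. The shares over all genes were 8.12% lower and 4.33% higher. Past edgeR's FDR threshold were 0, and the median log2 FC was -2.32 against -0.02 for all genes. It was the lowest median of the 24 lists in edgeR's fit, but by DESeq2 it was -1.30, above those of the erythroid (-2.17) and leukocyte (-1.37) lists. Their sum was 2506 to 8230.4 CPM in PNMT-high tumors (median 4315) and 2754 to 32306 CPM in PNMT-low tumors (median 4773), and was 32306 CPM in tumor 11 of group 2. THY1 took the most counts, 31.3% of the sum over the tumors, and the sum did not always follow the collagen genes. Tumor 6 of group 1 had the sum of 8230.4 CPM but 64.9 CPM of COL1A1, 104 of COL3A1 and 7.27 of COL6A3. Without tumor 11 of group 2 the median log2 FC was -1.14, and the rank correlation between the sum and PNMT was 0.06 over all 19 tumors and -0.61 within group 2. The collagen genes COL1A1 and COL3A1 had medians of 99.5 against 494 CPM and 145 against 567 CPM (log2 FCs -3.29 and -2.90), the microfibrillar collagen COL6A3 19.3 against 62.1 CPM (-2.44), and each had all 9 PNMT-high tumors below the PNMT-low median. The mural marker PDGFRB had 31.0 against 40.5 CPM (-1.18). Without tumor 11 of group 2 the log2 FCs were -1.84 for COL1A1, -1.48 for COL3A1, -1.85 for COL6A3 and -0.54 for PDGFRB. DESeq2 called COL1A1 (adjusted p = 0.00118) and COL6A3 (0.00228), and edgeR with the NAMs in the fit called COL1A1 (0.0202), COL3A1 (0.0246) and COL6A3 (0.0179).

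Of 14 leukocyte genes tested, 13 were lower and 0 higher at an unadjusted p below 0.05, against 8.12% and 4.33% of all genes. Past edgeR's FDR threshold were 0, and the median of -1.40 was -1.02 without tumor 11 of group 2. The sum of 17 markers was 513 to 2142 CPM in PNMT-high tumors (median 1165) and 729 to 5205 CPM in PNMT-low tumors (median 1368), and CD74 took the most counts. PTPRC, the pan-leukocyte phosphatase, had medians of 10.4 against 16.2 CPM (log2 FC -1.69, SE 0.47, adjusted p = 0.172), the macrophage marker CD68 7.40 against 17.8 CPM, the lymphocyte receptors CD2 2.65 against 9.00 CPM and CD4 2.58 against 7.99 CPM, and each had all 9 PNMT-high tumors below the PNMT-low median. DESeq2 called CD2 (adjusted p = 0.00588), CD68 (0.0210) and PTPRC (0.0215), and edgeR with the NAMs in the fit called these and CD4, at 0.0250 to 0.0322. Without tumor 11 of group 2 the log2 FC of PTPRC was -1.07, and that of CD4 went from -3.37 to -1.31. CD3E and CSF1R were above 0 in every tumor, with medians of 1.33 against 2.68 CPM and 41.2 against 52.4 CPM. With the fibroblast and leukocyte score as a term, edgeR again gave 0 genes in either direction (1324 at an unadjusted p below 0.05), the log2 FC of GCH1 was 0.73, that of TH 1.19, that of DBH 0.76, that of AHCY 0.87 and that of OLFM2 -3.82. In the same fit the log2 FC of CORO1A was -1.01, that of CD5L -4.44 and that of RGS19 -1.09. The part of these cells in the other values was not tested otherwise.

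Of 15 erythroid genes 10 were in the table and 3 were tested, 2 of them lower at an unadjusted p below 0.05. Over all genes, 8.12% were lower and 4.33% higher at that p. The sum of the 10 was 1.80 to 7.01 CPM in PNMT-high tumors (median 3.26) and 0.400 to 67.1 CPM in PNMT-low tumors (median 5.05), 67.1 CPM being in tumor 11 of group 2. The list median of -2.15 was -0.45 without that tumor and 0.44 with the fibroblast and leukocyte score as a term. ALAS2, which took the most counts, had medians of 0.938 against 1.01 CPM (log2 FC -2.15, -0.45 without tumor 11 of group 2), and HBM 0.532 against 1.44 CPM. Schwann and sustentacular markers gave a median of 0.78 over 9 tested, 0 of them at an unadjusted p below 0.05, with 0.17 without tumor 4 of group 1 and -0.38 within group 2. Their sum ran from 40.6 to 680.2 CPM in PNMT-high tumors (median 142) and 28.5 to 319 CPM in PNMT-low tumors (median 98.1), led by NGFR, and SOX10, which defines these cells, was 1.30 against 0.967 CPM at the median; CDH19 had the smallest p (9.64 against 1.37 CPM, log2 FC 1.28, 0.64 without tumor 4 of group 1, 0.44 within group 2). Endothelial genes had 1 of 12 higher, the angiopoietin receptor TEK (74.4 against 31.5 CPM, log2 FC 0.73), 0 lower and a median of -0.30, or 0.03 with the fibroblast and leukocyte score as a term. Their sum ran from 301 to 1428 CPM in PNMT-high tumors (median 778) and 399 to 1909 CPM in PNMT-low tumors (median 718), led by PLVAP, and PECAM1, CDH5 and VWF were present in every tumor. Liver and kidney genes had 0 of 8 tested higher and 1 lower at an unadjusted p below 0.05, 6 with a positive log2 FC (against 6735 of all 14154 genes) and a median of 0.53, or -0.08 without tumor 10 of group 2. They summed to 33.9 to 202 CPM in PNMT-high tumors (median 88.5) and 39.1 to 759 CPM in PNMT-low tumors (median 86.8), led by SERPINA1, a protease inhibitor that myeloid cells also make (7.09 against 29.2 CPM, log2 FC -3.34, -1.71 without tumor 11 of group 2, which held 619 CPM, and -1.64 by DESeq2, adjusted p = 0.0412); the kidney marker UMOD was at 0 counts in all tumors and NAMs. The part of these 4 cell types in the results was not tested.

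**Figure D4:**
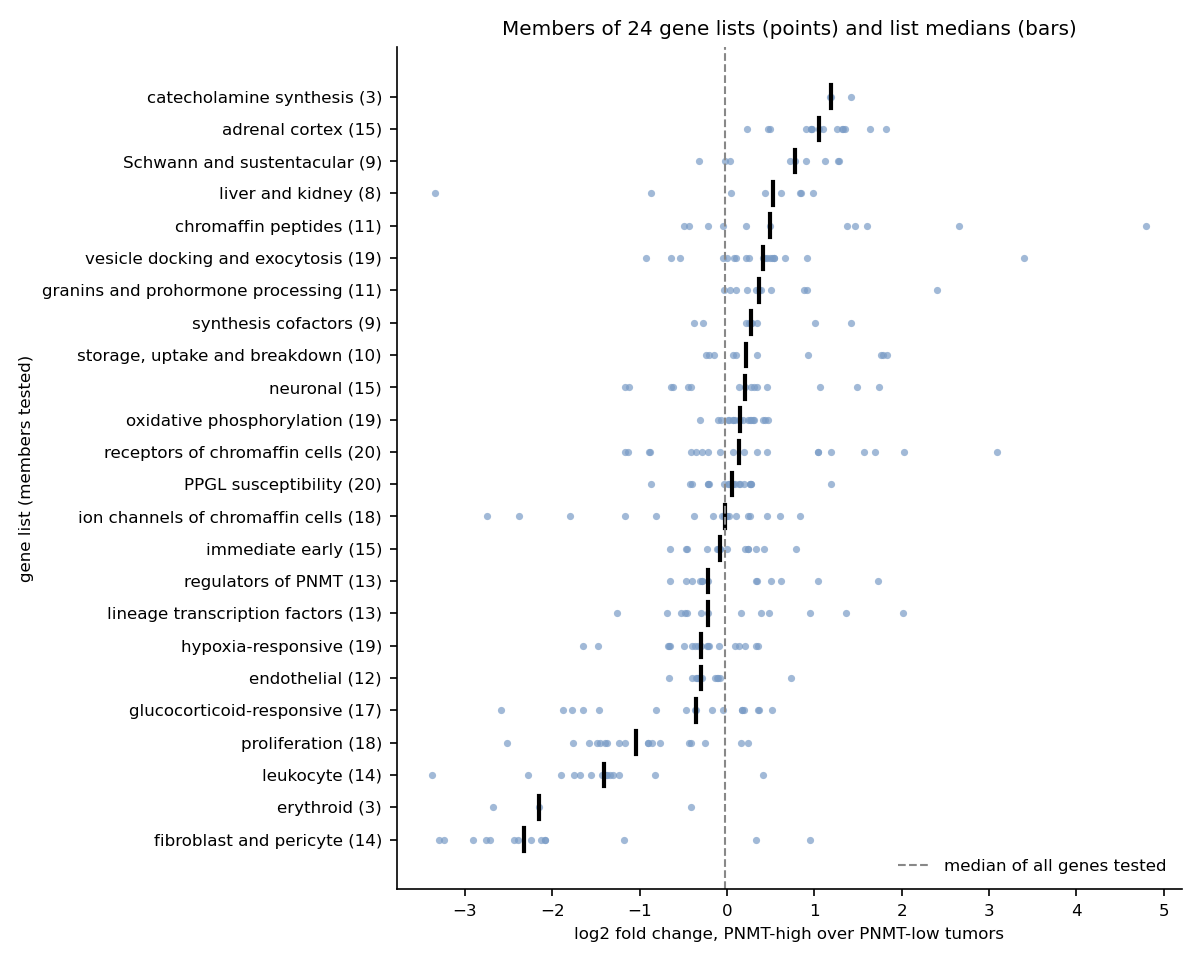
Log2 FC between PNMT-high and PNMT-low tumors (x axis) of each tested member (points) of 24 gene lists (y axis, with the number of members tested), with a bar at the list median and a dashed line at the median of all genes, -0.02. Catecholamine synthesis stands highest at 1.19 and fibroblast and pericyte genes lowest at -2.32; no member of any list passed the FDR threshold in edgeR's test, whose values are plotted, while DESeq2's test called some members.

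The genes next to PNMT on chromosome 9 were looked at because the TCAP gene model, on the same strand, spans PNMT (22794177 to 22813012), although the exons of the 2 genes share 0 bases. TCAP, of striated muscle, had medians of 8.17 against 4.51 CPM (log2 FC 0.69, but -0.36 within group 2), PGAP3 11.6 against 10.4 CPM (0.29), STARD3 76.8 against 57.1 CPM (0.36), ERBB2 6.74 against 5.09 CPM (0.01, but -0.08 without TMM) and PPP1R1B 4.07 against 2.71 CPM (0.17, but -0.18 without tumor 10 of group 2), with adjusted p-values from 0.497 to 0.998. 

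Total counts per tumor overlapped between the sides: they were 18493540 to 24635194 (median 21435471) in PNMT-high and 18208718 to 31919833 (median 22044100) in PNMT-low tumors, with a difference of means of -860994.0 counts (two-sided exact permutation test over 48620 assignments, p = 0.632), and 3 counts were 0.0940 to 0.165 CPM. Each p-value measures the spread between tumors of different dogs, except those with the NAMs in the fit. There the spread between the NAMs of different dogs enters the estimate as well.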

How the data were processed

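RNA-seq of 19 PPGLs and 10 NAMs of dogs was used. In units of counts, the authors deposited the number of single-end 50 bp reads on the exons of each of 30951 Ensembl genes of CanFam3.1 in each sample, as raw counts from their featureCounts table; the labels also name FastQC, STAR, Picard and HTSeq. Strand setting and handling of reads that fit several genes are not given in the sources used here, so values of overlapping genes and close paralogs are uncertain. Tumors were ranked by PNMT CPM, and TMM-normalized CPM gave the same sides.

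The sides were compared with edgeR 4.0.16 (filterByExpr with minimum count 10 and minimum total 15, TMM, quasi-likelihood test, prior count 0.125, Benjamini-Hochberg correction) in R 4.3.3; PNMT was fitted but not tested. The SE is the log2 FC over the root of F. Values per sample were normalized over all 29 samples, log2 values had a prior count of 2, and nearness to the NAMs was taken on medians plus 0.1 CPM. Depth was 18208718 to 31919833 counts per tumor and 3 counts were taken as the floor, for counting error only. The steps were checked on simulated data. Figures used Python 3.11.15 and matplotlib 3.10.9.

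Named genes were the members of the synthesis, cofactor, storage and regulator lists, the 5 smallest p in each direction (none being past the threshold), of each other list the member with the smallest p, the 5 highest and 5 lowest rank correlation with PNMT, and cell type markers. PNMT neighbours, the genes of the gradient fit, CPA1, DIMT1, CCDC181 and further genes singled out in the text were chosen after their values were seen. Some genes are not reported here. The members and lists were chosen with earlier results of these data known.

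Alternatives were DESeq2 1.42.0 size factors or column sums, its Wald test (which replaced extreme counts), an exact Mann-Whitney U-test, no filter or 1 CPM in 9 tumors, the study's thresholds (FDR 0.1; log2 FC over 3), PPGL group or the cortex score as a term, group 2 alone, 6 against 6 tumors, log2 PNMT as a gradient, the NAMs in the fit, each tumor left out, the sample number as a block and a prior count of 2. Added after the data were seen were a fibroblast and leukocyte score as a term, tumors 3, 5 and 7 of group 1 left out, the interaction with PPGL group, and the alternatives of the gradient fit. A score is the mean log2 CPM of the list.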

Additional observations from a re-analysis of the deposited data

Results flagged for a closer look

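Of 242 sets of 9 values, the named genes on each side, 28 held a tumor whose gap to the next, as a share of the range of log2 values, exceeded Dixon's 95% critical value (chance flags about 1 in 20 sets, a rate that does not apply here, since PNMT chose the sides and many of the genes were named after their values were seen). Of these, 12 were tumor 7 of PPGL group 1 on the PNMT-low side. It was the highest of its side in ALDH3A2 (350.0 CPM), MKI67 (288), TOP2A (663), SOX4 (54.9), oxytocin (OXT, 4.13) and S100B (0.300), and the lowest in CHGB (26.9), DRD2 (0.466), PENK (0.133), NR3C2 (2.33), PCBD1 (17.6) and TOMM70 (47.4).

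Tumor 11 of PPGL group 2, also PNMT-low, was the highest of its side in CD4 (191 CPM), CORO1A (92.9), HIF1A (703) and HSD11B1 (53.9) and the lowest in OLFM2 (1.53). PDYN was 2.402 CPM in tumor 7 of group 2 and RET 1.43 CPM in tumor 5 of group 1. Among the PNMT-high tumors, tumor 2 of group 1 was the highest in PDYN (176 CPM), UBE2U (11.1) and PTS (58.3). The lowest of that side were tumor 8 of group 2 in DBH (4111 CPM) and GATA3 (0.377), tumor 10 of group 2 in CHRNA3 (13.8), and in group 1 tumor 4 in MAOB (10.2), tumor 6 in PECAM1 (35.9) and tumor 1 in RET (3.89).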

How the results depend on the processing

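The edgeR count of 0 higher and 0 lower genes (1763 at an unadjusted p below 0.05) was 77 and 215 by DESeq2's Wald test, 112 and 331 with the NAMs in the fit, and 3 and 1 with log2 PNMT over 19 tumors; the cause was not tested. Leaving out 1 tumor at a time it was 0 to 2 higher and 0 to 3 lower, with the smallest adjusted p between 0.00385 and 0.269, and 16 of 18 such fits gave 0. The exceptions were the fits without tumor 5 of group 2 (2 and 3) and without tumor 11 of group 2 (0 and 2). All other alternatives that were run gave 0 and 0. With the sample number as a replicate block it was 0 and 0 as well (543 at an unadjusted p below 0.05); the numbers count different dogs, and the deviations of the 6 same-numbered pairs correlated at -0.33 to -0.05. The gradient counts of 3 rising and 1 falling genes were 0 and 0 with PPGL group as a term and 23 and 21 with a low-count filter made for that fit; leaving out 1 tumor at a time they were 2 to 38 and 0 to 165, which are fits of fewer tumors. The difference of mean depth was 1303881.2 counts within group 2 (exact permutation p = 0.297), opposite in sign to that of all 18 tumors. Without TMM, the median log2 FC of all genes was -0.0985. Of 118 named genes, 72 had 1 sign in every alternative; 108 of 4108 values changed sign, none past the threshold. Of 24 list medians, 7 had 1 sign in every alternative. Genes of few counts are limited by depth: 3 counts were up to 0.165 CPM.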
